A study of Homo sapiens with 18 samples.

Results

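Human HEK293doxERN2 cells induced with 100 ng/mL doxycycline and never exposed to thapsigargin were compared with the same cells left uninduced. The samples were chosen by their labels, high ERN2 control and no ERN2 control, which gave 6 of the 18 RNA-Seq libraries of the series, 3 per group. HEK293doxERN2 is a derivative of the human embryonic kidney line HEK293 that carries a FLAG-tagged ERN2 transgene under doxycycline control. Cells of the induced group received doxycycline for 24 hours, cells of the other group received none, and both groups received DMSO, the vehicle of thapsigargin, over the last 3 hours. Among the other 12 libraries, those at 10 ng/mL doxycycline and those treated at 200 nM with thapsigargin, which blocks calcium uptake into the ER, are used only where named.

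Several features limit what the comparison can show. All libraries derive from a single engineered line, and no line without the transgene was given doxycycline among the samples used, so effects of doxycycline and of ERN2 cannot be told apart. The labels do not say whether replicates were separate cultures, and the p-values measure only the spread between these libraries. In bulk RNA, fewer cells expressing a gene and less of its RNA per cell cannot be told apart. The extraction text of the labels names colon crypt cells, whereas 15 of 16 markers of colon epithelium and goblet cells were under 1 CPM (counts scaled to library size) in all 6 libraries and 6 were at 0. The summed level of these markers was 4.95 to 5.43 CPM without doxycycline and 5.22 to 6.39 with it, most of which was CDX2. Of 9 genes typical of HEK293 cells, 8 were above 10 CPM in every library. As a check of the labels, ERN2 was at 6.57 to 9.10 CPM in uninduced cells and at 249 to 309 in induced cells, with transgene and endogenous reads added together.

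ERN2, also called IRE1β, is an ER transmembrane protein with a kinase and an endoribonuclease domain facing the cytosol. Like its paralog ERN1 (IRE1α), it can excise an intron from XBP1 mRNA, which then encodes a transcription factor for genes of ER import, folding, quality control and vesicle transport. Further mRNAs docked on the ER can be cut by the same nuclease and are then lost, which is called RIDD (regulated IRE1-dependent decay). Most mRNAs reach that surface because the nascent protein opens with a hydrophobic signal, a cleaved signal peptide or an anchoring membrane segment, which the signal recognition particle binds. ERN2 is normally made in mucosal epithelium, where goblet cells secrete mucins in bulk.

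Lowered genes outnumbered raised genes by far. Of 14444 genes tested, 1082 were lower in induced cells (7.49% of all genes tested) and 121 were higher (0.838%) at an adjusted p under 0.01 in edgeR's quasi-likelihood test with Benjamini-Hochberg adjustment. Together these were 8.33% of the genes. At an unadjusted p under 0.05 in that test, 2476 genes were lower and 1761 higher. On the log2 scale, lower genes had a median of -1.03, higher genes one of 0.78 and all genes one of -0.01. A value of -1 or below was reached by 565 lower genes and one of -2 or below by 76, whereas 29 higher genes reached 1. In all 1203 called genes the 3 induced libraries lay on one side of the 3 uninduced ones. The count of higher genes was 215 without induced replicate 1, and 70, 77 and 77 without uninduced replicates 1, 2 and 3. Whichever library was left out, 765 of the 1082 lower and 55 of the 121 higher genes kept their call. Among all genes tested, such a separation was seen downward for 16.1% and upward for 19.7%.

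**Figure D1:**
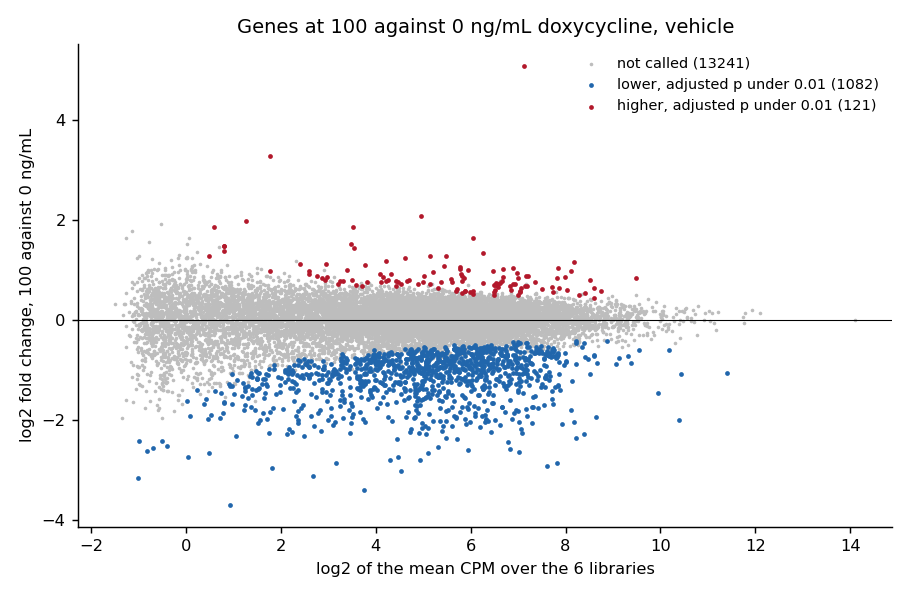
Log2 fold change at 100 against 0 ng/mL doxycycline in vehicle-treated cells (vertical axis) of each of 14444 genes, against the log2 of its mean CPM over the 6 libraries (horizontal axis). Blue points are the 1082 lower genes and red points the 121 higher genes at an adjusted p under 0.01, and the lowest blue point is CTSO at -3.69 while the highest red ones are ERN2 at 5.07 and BHLHA15 at 3.26.

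The most strongly lowered genes encoded proteins that enter the ER. The start of the coding sequence is printed for 6 of them and for 2 raised genes because it encodes the amino-terminal stretch by which the classes used here were defined. Each line holds the first 75 coding bases, 5′ to 3′, of a GENCODE 29 transcript on GRCh38, and capitals mark the codons of the first window of 10 residues whose mean Kyte-Doolittle hydropathy was at least 2.2.
PROS1: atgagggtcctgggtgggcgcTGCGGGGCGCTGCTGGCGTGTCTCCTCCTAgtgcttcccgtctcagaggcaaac
IGFBP7: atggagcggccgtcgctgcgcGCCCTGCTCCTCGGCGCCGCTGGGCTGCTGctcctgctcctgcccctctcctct
COL4A1: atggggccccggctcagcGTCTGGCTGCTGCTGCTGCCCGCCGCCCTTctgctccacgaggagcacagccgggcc
ITGB1: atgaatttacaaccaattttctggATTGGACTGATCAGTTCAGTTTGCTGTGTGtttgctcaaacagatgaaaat
NPC2: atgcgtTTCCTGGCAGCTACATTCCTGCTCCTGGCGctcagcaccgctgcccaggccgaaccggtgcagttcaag
TMEM19: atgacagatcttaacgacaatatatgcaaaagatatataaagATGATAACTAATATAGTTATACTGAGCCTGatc
DNAJB9: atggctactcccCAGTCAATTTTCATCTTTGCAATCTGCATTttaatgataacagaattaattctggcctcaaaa
HSPA5: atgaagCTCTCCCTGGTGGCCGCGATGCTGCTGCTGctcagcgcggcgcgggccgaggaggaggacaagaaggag
On GRCh38 the genes span chr3:93873033-93980003 (PROS1), chr4:57030773-57110385 (IGFBP7), chr13:110148963-110307233 (COL4A1), chr10:32900319-33005792 (ITGB1), chr14:74476192-74494177 (NPC2) and chr9:125234853-125241330 (HSPA5), all on the minus strand. TMEM19, at chr12:71686087-71705046, and DNAJB9, at chr7:108569568-108574850, are on the plus strand. All genes printed here, lower and higher, hold such a window. They are examples, so they do not tell how common the window was among lower or higher genes.

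PROS1, the secreted anticoagulant protein S, was at 21.0, 30.6 and 22.5 CPM in the 3 uninduced libraries and at 2.87, 1.895 and 2.498 in the induced ones. IGFBP7, a secreted protein that binds insulin-like growth factors, went from 41.6, 42.4 and 38.7 CPM to 4.64, 5.85 and 5.00. In both genes every induced library was far below every uninduced one, by -3.40 for PROS1 (standard error 0.207, adjusted p = 3.61e-07 in edgeR) and -3.02 for IGFBP7 (standard error 0.146, adjusted p = 1.06e-07) as log2 fold changes. CTSO, a lysosomal cysteine protease, had the lowest fitted value of all genes, -3.69 (standard error 0.391, adjusted p = 3.12e-05), at 2.34 to 4.94 CPM before and 0.206 to 0.365 CPM after induction. ITGB1, the β1 integrin subunit found in many cell-matrix receptors, was at 363, 461 and 369 CPM uninduced and 65.2, 43.5 and 61.7 induced, a log2 fold change of -2.85 (standard error 0.159, adjusted p = 2.27e-07). NPC2, which carries cholesterol inside the lysosome, went from 42.1, 35.9 and 36.7 CPM to 5.48, 6.47 and 5.63, a log2 fold change of -2.74 (standard error 0.145, adjusted p = 1.80e-07). TMEM19, predicted to cross the membrane several times, went from 50.7, 71.1 and 55.8 CPM to 8.97, 10.2 and 9.67, a log2 fold change of -2.66 (standard error 0.155, adjusted p = 2.97e-07). The groups did not overlap in these genes, which does not set them apart, since they overlapped in none of the 1203 called genes.

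**Figure D2:**
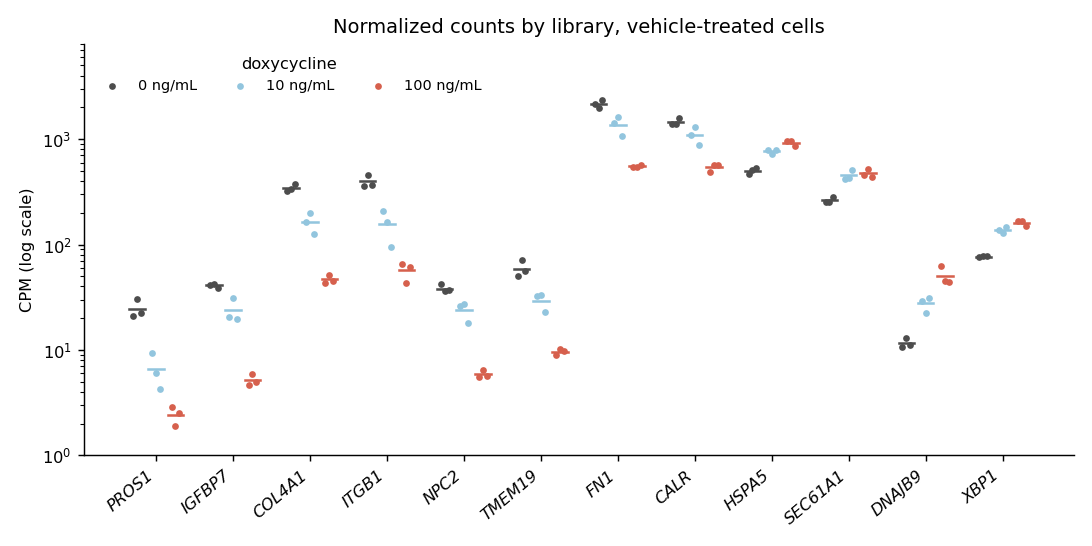
CPM on a log scale (vertical axis) of 12 genes in each vehicle-treated library at 0, 10 and 100 ng/mL doxycycline, 3 points per dose with a line at their mean. PROS1, IGFBP7, COL4A1, ITGB1, NPC2, TMEM19, FN1 and CALR fall and HSPA5, SEC61A1, DNAJB9 and XBP1 rise without overlap between 0 and 100 ng/mL, with the means at 10 ng/mL in between.

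Each gene was then placed in a class by its protein, translated from the GENCODE 29 coding sequence. An N-terminal segment is a window as capitalised above that starts at residues 2 to 25, and a later segment is a window of 19 residues after residue 40 with a mean hydropathy of at least 1.6, long enough to span a membrane. As a check, 156 of 189 genes of the lists of secreted proteins and lysosomal hydrolases had an N-terminal segment (82.5%), against 2 of 242 genes of cytosolic and nuclear lists (0.826%). Of the 1031 lower genes with a class, 939 (91.1%) had a segment of some kind and 598 (58.0%) an N-terminal one. Among all genes tested with a class these shares were 34.6% and 14.8%. The 109 higher genes with a class held 52 (47.7%) with any segment and 15 (13.8%) with an N-terminal one.

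Proteins with an N-terminal segment and no later one, mostly soluble proteins of the ER, the lysosome or the cell's exterior, numbered 852, of which 269 were lower and 8 higher, and their median was -0.43 on the log2 scale. Genes with both an N-terminal and 1 later segment, HSPA5 among them, numbered 589, with 199 lower, 4 higher and a median of -0.55. The classes rest on hydropathy alone, so a later segment is not proof of a membrane span. Of 442 genes with an N-terminal and 2 or more later segments, 130 were lower and 3 higher, with a median of -0.47. Genes with 2 or more later segments and no N-terminal one numbered 1087, with 232 lower, 11 higher and a median of -0.28. With a single later segment, 109 of 1433 genes were lower, 7.61% against 7.49% of all genes. In that class 26 were higher, 1.81% against 0.838% of all genes, and the median was -0.02. In 208 genes of this class the segment lies within 30 residues of the carboxy terminus, as in tail-anchored proteins that are inserted after translation. Of these, 8 were lower (3.85%) and 7 higher (3.37%), with a median of 0.08. Of the 8322 genes without a segment, 92 were lower (1.11%) and 57 higher, with a median of 0.04.

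**Figure D3:**
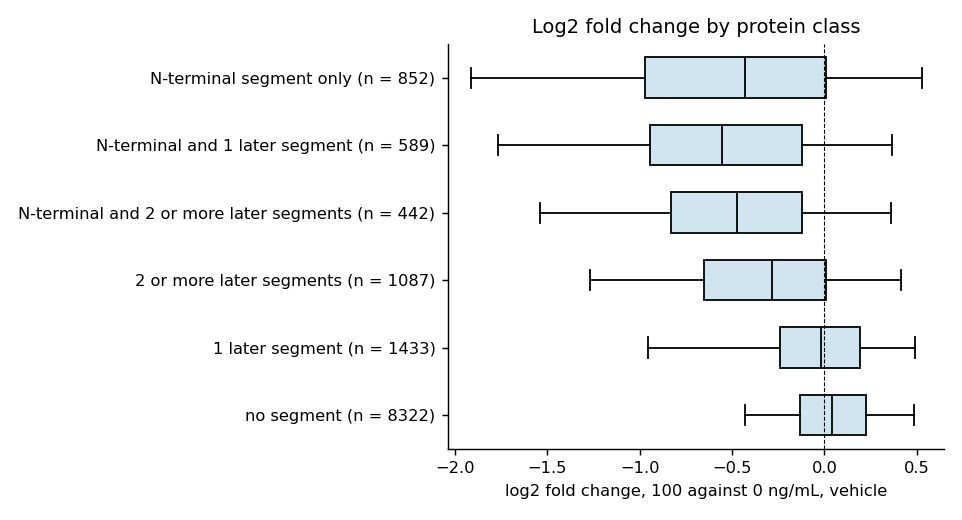
Log2 fold change at 100 against 0 ng/mL doxycycline, vehicle (horizontal axis), of the genes of 6 protein classes. Boxes span the middle quartiles with the median as a line, whiskers run from the 5th to the 95th percentile, and the 3 classes with an N-terminal segment have medians of -0.43, -0.55 and -0.47 against 0.04 for genes with no segment.

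The same difference was visible in the share of reads. Genes with an N-terminal segment took 9.63%, 9.604% and 9.54% of all counts in the uninduced libraries and 6.57%, 6.63% and 6.63% in the induced ones. The means were 9.59% ± 0.045 (SD, n = 3) and 6.61% ± 0.035 (SD, n = 3), without overlap, and the exact permutation test gave a two-sided p of 0.1, the smallest that 3 against 3 libraries allow. At 10 ng/mL the share was 8.77% ± 0.60 (SD, n = 3), between the other two. The share of genes with 2 or more later segments and no N-terminal one went from 6.26% ± 0.088 to 5.23% ± 0.11 (SD, n = 3 each). That of genes with a single later segment, 10.5% ± 0.043 and 10.4% ± 0.077 (SD, n = 3 each), overlapped between the groups (exact p = 0.2). Genes without a segment took 67.8% ± 0.32 before and 71.7% ± 0.72 after induction (SD, n = 3 each). Shares of one library sum to a fixed total, so a lower share of some classes raises that of others.

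**Figure D4:**
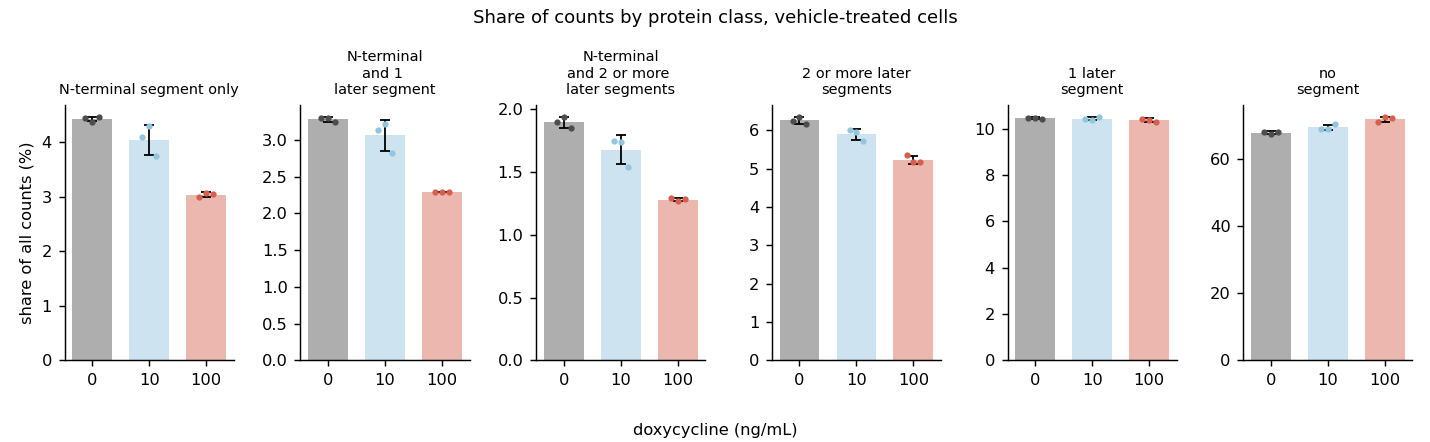
Share of all counts in percent (vertical axis, from 0, scaled per panel) that fell on genes of 6 protein classes in vehicle-treated libraries at 0, 10 and 100 ng/mL doxycycline. Bars are means, points the 3 libraries and error bars the SD, and the 3 classes with an N-terminal segment go from 4.42%, 3.28% and 1.89% at 0 ng/mL to 3.04%, 2.29% and 1.28% at 100 ng/mL.

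By compartment, 46 gene lists covered 1067 of the genes tested, among them 271 of the 1082 lower and 35 of the 121 higher genes. The lists were written from general knowledge with earlier results of these data known, so the shares below are descriptions. Lists of secreted and cell surface proteins held 243 tested genes, of which 130 were lower (53.5%, against 7.49% of all genes) and 0 higher in edgeR. Their median was -0.82 (log2). Of these, 6 were higher at an unadjusted p under 0.05, and DESeq2 called 1. Lysosome lists held 85 genes, 53 lower (62.4%) and 0 higher, with a median of -0.77. In these lists 1 gene was higher at an unadjusted p under 0.05, and DESeq2 called 0. The machinery of the ER and of vesicle traffic was divided, with 40 lower (16.7%) and 25 higher (10.5%) of 239 genes. Over all genes these shares were 7.49% and 0.838%. The median of this machinery was -0.06. Lists outside the secretory pathway had 3 lower and 2 higher of 357 genes and a median of 0.10.

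**Figure D5:**
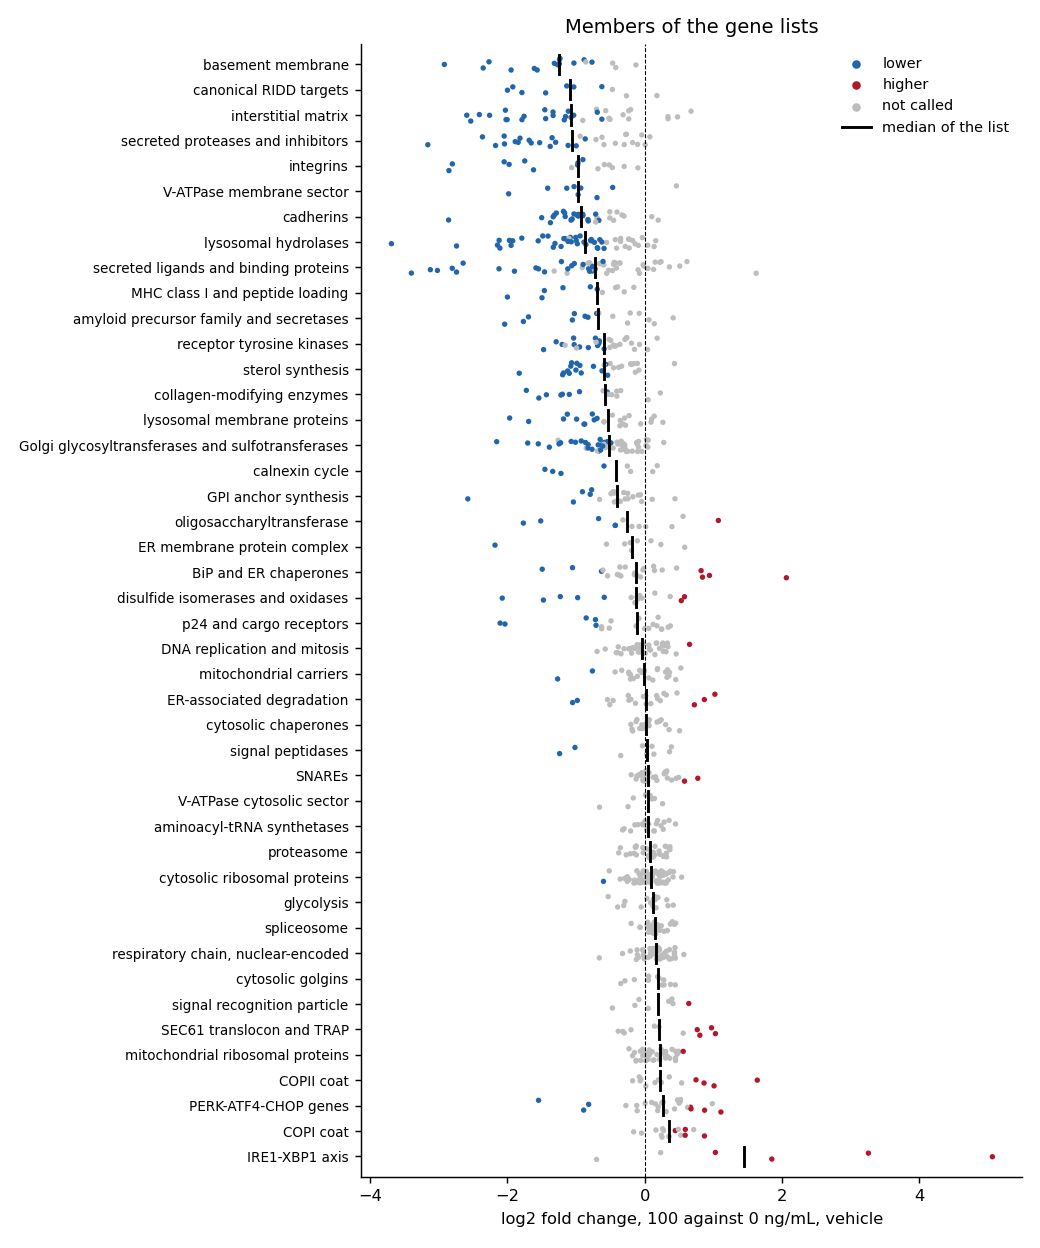
Log2 fold change at 100 against 0 ng/mL doxycycline, vehicle (horizontal axis), of each tested member of 44 gene lists, ordered by the list's median (black line). Blue members were lower and red members higher at an adjusted p under 0.01, and the upper lists, from basement membrane at a median of -1.24 to lysosomal hydrolases at -0.87, hold blue members while red ones appear in lists of the unfolded protein response, vesicle coats and ER import.

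Basement membrane genes, which encode the collagen IV, laminin, nidogen and proteoglycan sheet under epithelia, fell in 14 of 18 cases, with a median of -1.24. COL4A1 was at 320.2, 337 and 372 CPM uninduced and 42.9, 51.8 and 45.2 induced, a log2 fold change of -2.92 (standard error 0.12, adjusted p = 6.515e-08 in edgeR). LAMC1, the laminin γ1 chain, changed by -2.35 and NID1, which links laminin to collagen IV, by -2.27. Interstitial matrix genes fell in 20 of 33 cases, with a median of -1.07. FN1, encoding fibronectin, was the most abundant of these at 2132, 1971 and 2333 CPM, and stood at 547, 539 and 566 after induction, a log2 fold change of -2.0. FBLN1 (fibulin 1) changed by -2.59 and COL2A1 by -2.53. Of the enzymes that modify collagen in the ER or outside the cell, 8 of 16 fell, among them PLOD3, a lysyl hydroxylase, at -1.43, and the procollagen protease ADAMTS2 at -1.72. That list held 21 genes, of which 17 were matched by symbol in the counts, so its count is not complete.

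Secreted proteases and their inhibitors fell in 17 of 30 cases, including TIMP1, an inhibitor of metalloproteases, which went from 79.3, 68.2 and 76.7 CPM to 11.0, 18.0 and 15.6 (log2 fold change -2.37). Among secreted ligands and binding proteins 22 of 56 fell. Of the 6 genes named IGFBP, 5 fell, with log2 fold changes from -1.55 (IGFBP5) to -3.02 (IGFBP7), while IGFBP3 was at -0.01 and did not pass the test. INHBE, an inhibin subunit gene, had the highest value of that list at 1.63 and did not pass either, and MIF, a cytokine made without a signal peptide, was at 0.51 (adjusted p = 0.107).

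At the cell surface, integrin subunits fell in 9 of 16 cases with a median of -0.97, including ITGB5 (-2.80), ITGA1 (-2.05) and ITGAV (-0.98). Cadherin family genes, whose products join cells to each other, fell in 21 of 32 cases. CLSTN2, the calsyntenin 2 gene, was the lowest at -2.86, CELSR1 changed by -1.50, and CDH2 (N-cadherin) went from 312, 332 and 324 CPM to 180.3, 166 and 187, a log2 fold change of -0.90. Receptor tyrosine kinase genes fell in 13 of 31 cases, led by RET (-1.47), PTK7 (-1.29) and RYK (-1.20), whereas IGF1R, at 256, 260.2 and 277 CPM before and 232, 222 and 215 after induction, did not pass (-0.29, adjusted p = 0.0666). For MHC class I and its peptide loading, 6 of 11 genes fell. TAPBP, which docks peptide transporters to class I molecules, changed by -2.0, B2M by -1.50 and TAP1 by -1.46, while HLA-B was at -0.42 (adjusted p = 0.08935). In the list of the amyloid precursor family and its proteases 8 of 16 genes fell. APP was at 453, 460.3 and 480 CPM uninduced and 100.5, 126 and 122 induced, a log2 fold change of -2.04, and APLP2 changed by -0.87.

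Lysosomal hydrolase genes fell in 35 of 52 cases with a median of -0.87. PSAP, the precursor of the saposins that help degrade sphingolipids, went from 368, 322 and 332 CPM to 124, 144 and 129 (log2 fold change -1.41), and CTSA changed by -2.15. Lysosomal membrane proteins fell in 10 of 24 cases, including LAMP1 (-1.69) and OSTM1 (-1.97). The proton pump that acidifies the lysosome, the V-ATPase, has a membrane sector made at the ER and a cytosolic sector made on free ribosomes. Of the 9 genes of the membrane sector and its accessory subunits 8 fell, with a median of -0.97, for instance ATP6V0C, whose small subunits form the rotor ring, at 319, 285 and 306 CPM uninduced and 98.96, 130.2 and 122 induced. ATP6V0D1 did not fall and was at 0.46. It encodes a subunit of that sector with no membrane span. Of the genes that fell, ATP6V0A1 kept its call only without induced replicate 2. Of the 8 cytosolic sector genes 0 passed edgeR's test in either direction (median 0.05), 1 was lower and 1 higher at an unadjusted p under 0.05, and DESeq2 called 1 lower. ATP6V1E1 in that sector was at 148, 146 and 139 CPM uninduced and 163, 152 and 155 induced.

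For the Golgi, enzymes of its membrane and proteins bound from the cytosol are given side by side, with no test of the difference. Glycosyltransferases and sulfotransferases, anchored by a single N-terminal span, had 22 lower and 0 higher of 57 genes and a median of -0.52. GALNT10, which starts mucin-type O-glycans, went from 50.3, 49.5 and 53.3 CPM to 10.8, 11.3 and 13.2 (log2 fold change -2.16). Golgins and other Golgi proteins bound to the membrane from the cytosol had 0 of 12 genes called by edgeR, with a median of 0.20. At an unadjusted p under 0.05, 3 were higher, and DESeq2 called 2 higher. SNARE genes, most of which encode tail-anchored fusion proteins, had 0 lower and 2 higher of 29, STX5 (0.78) and BET1L (0.58), the latter not called without any 1 of the uninduced replicates or induced replicate 3. Enzymes of GPI anchor synthesis had 5 lower of 24, with PIGT, a subunit of the transamidase that attaches the anchor, at 203, 186 and 189 CPM uninduced and 29.2, 34.1 and 36.3 induced (-2.58).

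The ER's own machinery moved in both directions. Its counts and those of vesicle traffic below stand beside 7.49% lower and 0.838% higher over all genes. Of 24 ER chaperone and cochaperone genes 3 fell and 4 rose, and CNPY2 was the lowest at -1.49. HSPA5, encoding the chaperone BiP, was at 468, 504 and 536 CPM in uninduced libraries and 965, 961 and 860 in induced ones, a log2 fold change of 0.84 (standard error 0.102, adjusted p = 8.68e-05 in edgeR). DNAJB9, a cochaperone of BiP, went from 10.8, 12.9 and 11.2 CPM to 61.9, 44.6 and 44.1 (log2 fold change 2.07), and MANF, a small ER protein of the stress response, changed by 0.94. CALR, the lectin chaperone calreticulin, fell instead, from 1378, 1377 and 1574 CPM to 490, 564 and 573 (log2 fold change -1.45, standard error 0.109, adjusted p = 1.90e-06), and 4 of 8 genes of the calnexin cycle fell with it, CALR included. Its membrane-bound partner CANX was at 0.18 (adjusted p = 0.243). HSP90B1, the ER form of HSP90, was at 1241, 1473 and 1304 CPM before and 1544, 1175 and 1387 after induction, with overlapping groups and a log2 fold change of -0.01.
Among disulfide isomerases and oxidases 5 of 16 fell, such as TXNDC12 (-2.08) and QSOX1 (-1.48), and 2 rose, PDIA4 (0.53) and TXNDC11 (0.58). Both of these calls were lost without uninduced replicate 1 or 2 or induced replicate 3, and that of TXNDC11 also without uninduced replicate 3. P4HB, the archetypal protein disulfide isomerase, was at -0.04 and its groups overlapped. The list of isomerases and oxidases held 18 genes, of which 16 were matched by symbol in the counts. Genes whose protein had an N-terminal segment and ended in a KDEL-like signal for return to the ER numbered 32, of which 11 fell and 2 rose, HSPA5 and PDIA4, with a median of -0.31. RCN2, a calcium-binding protein of the ER, was the lowest of the 32 at -2.43, with 163, 215 and 176 CPM uninduced and 36.1, 29.3 and 40.6 induced. ER-associated degradation had 2 lower genes, OS9 (-1.05) among them, and 3 higher ones, DERL3 (1.02), HERPUD1 (0.87) and SYVN1 (0.72), of 23 tested. VIMP and SELK, older symbols of further ER membrane genes of that pathway and not on the list, also rose, by 0.69 and 0.88. Both were named after their values were seen and are not in the count, since the list holds other symbols. The degradation list held 26 genes, of which 24 were matched by symbol in the counts, so its count is not complete.

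For ER import, the SEC61 channel and its TRAP complex had 4 higher and 0 lower genes of 11. SEC63, outside this list, was called lower, a call lost without uninduced replicate 2 or 3 or induced replicate 3. SEC61A1, the channel itself, went from 251, 255 and 284 CPM to 457, 525 and 439 (log2 fold change 0.80), SEC61B changed by 0.97, SEC61G by 0.77 (not called without uninduced replicate 1) and the TRAP subunit SSR2 by 1.03. The signal recognition particle and its receptor had 1 higher gene of 8, SRP68 (0.64). The oligosaccharyltransferase, which attaches N-glycans at the channel, had 5 lower subunit genes of 12, led by RPN1 (-1.77) and TUSC3 (-1.52), and 1 higher, TMEM258 (1.07), one of the smallest subunits. Of the lower ones, STT3A lost its call whichever library was left out, and RPN2 in every case but that of induced replicate 2. In the ER membrane protein complex 1 of 9 genes fell, EMC10, at 221, 205 and 229 CPM uninduced and 42.5, 55.1 and 51.1 induced (-2.18).
Vesicle coats are assembled from cytosolic proteins. The COPII coat, which buds vesicles from the ER, had 4 higher and 0 lower of 14 genes. Besides SEC24D, which was the highest at 1.64, these were SEC24C (0.87), SEC23B (0.75) and PREB (1.01), the ER-bound activator of the coat's GTPase. The COPI coat, which returns vesicles to the ER, had 4 higher and 0 lower of 16, from COPG1 (0.87) to COPA (0.45). COPA lost its call whichever library was left out, ARFGAP3 without uninduced replicate 1 or 3 or induced replicate 1, and ARF4 without uninduced replicate 1. Cargo receptors, which span the membrane of these vesicles, had 5 lower and 0 higher of 20. ERGIC3 went from 158, 148 and 167 CPM to 36.1, 39.1 and 37.8 (log2 fold change -2.11), ERGIC1 changed by -2.04, and the KDEL receptors KDELR2 and KDELR1 by -0.85 and -0.72. SURF4, another receptor of this list, was at 0.37 (adjusted p = 0.044).

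Sterol synthesis, many of whose enzymes sit in the ER membrane, had 15 lower and 0 higher genes of 27 (median -0.59). INSIG1, which holds the sterol sensor in the ER, went from 79.5, 92.1 and 84.9 CPM to 21.1, 23.7 and 29.6 (log2 fold change -1.83). HMGCS1 (-1.20) and IDI1 (-0.94) were also lower, and these are enzymes outside the ER membrane. Their regulators SREBF1 and SREBF2, ER-membrane transcription factors, changed by -1.18 and -1.10, and SREBF1 was not called without uninduced replicate 1 or 2 or induced replicate 1. Of 10 mRNAs often cited as RIDD substrates 7 fell, with a median of -1.08. TAPBP (-2.0), TGOLN2 (-1.92) and CD59 (-1.79) were the lowest, and BLOC1S1, a classical substrate that encodes a protein without a membrane signal, went from 8.50, 6.89 and 6.29 CPM to 3.34, 4.00 and 2.76 (-1.14, standard error 0.202, adjusted p = 0.00184, not called without uninduced replicate 1). PER1, at 0.18, did not pass.

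Families with a common symbol were counted after the values had been seen. TSPAN genes, encoding tetraspanins, had 9 lower and 0 higher of 17 (median -0.83), and ZDHHC genes, encoding membrane-bound palmitoyltransferases, had 11 lower and 0 higher of 22 (-0.51). SLC genes other than SLC25, transporters of the plasma membrane and of organelles, had 43 lower and 4 higher of 203 (-0.30). The SLC25 carriers, which are inserted into mitochondria, had 3 lower and 0 higher of 42, a share of 7.14% (median -0.01). TMEM genes had 33 lower and 2 higher of 196 (-0.20). RAB genes, small GTPases bound to membranes by lipids, had 0 of 60 called (4 lower and 7 higher at an unadjusted p under 0.05, and 3 higher in DESeq2), and ZNF genes, mostly nuclear, 0 lower and 3 higher of 482.

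Few genes of the lists outside the secretory pathway were called lower, 0.840% of 357 against 7.49% of all genes. The share called higher, 0.560%, was near the 0.838% of all genes. Proteasome, glycolysis, aminoacyl-tRNA synthetase, spliceosome, cytosolic chaperone and nuclear-encoded respiratory chain lists had 0 genes called in either direction of 31, 17, 20, 32, 23 and 46 tested by edgeR, with medians from 0.02 to 0.16. Of the 169 genes of these lists, 9 were lower and 35 higher at an unadjusted p under 0.05, and DESeq2 called 2 lower and 2 higher. Over all 14444 genes tested, 2476 were lower and 1761 higher at that unadjusted threshold in edgeR. These lists thus had more higher than lower genes there, unlike all genes. Cytosolic ribosomal proteins had 1 lower gene of 75, RPS2 (-0.60), and a median of 0.09. Mitochondrial carriers had 2 lower of 25 (8%, near the share of all genes), SLC25A1 (-1.27) and SLC25A3 (-0.76). Replication and mitosis had 1 higher of 37, CDC6 (0.65), and mitochondrial ribosomal proteins 1 higher of 43, MRPS18B (0.56). RPS2 and MRPS18B lost their calls without uninduced replicate 1 or 2 or induced replicate 3, and RPS2 also without uninduced replicate 3. GAPDH, at 2280, 2072 and 2294 CPM uninduced and 2162, 2915 and 2528 induced, had overlapping groups (0.15, adjusted p = 0.424).

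The 92 lower genes without any segment were of several kinds, and those named here were picked after their values were seen. When the hydropathy minimum was 0.2 lower, 57 of them were left. Some encode secreted proteins, and 13 belong to the secreted, cell surface or lysosome lists. GRN, encoding the secreted and lysosomal progranulin, went from 247, 215 and 204 CPM to 30.5, 42.0 and 36.9 (log2 fold change -2.65), and COL3A1 changed by -2.26. Others encode proteins that work in the cytosol or nucleus. EIF2AK1, the heme-regulated eIF2α kinase, was at 248, 265 and 252 CPM uninduced and 105.8, 100.1 and 120.4 induced, without overlap (log2 fold change -1.27, standard error 0.105, adjusted p = 4.22e-06). TPT1, the translationally controlled tumor protein, went from 761, 831 and 757 CPM to 459, 481 and 530.3 (-0.72), and the telomere protein gene TERF1 changed by -0.80, a call lost without uninduced replicate 2. FLNA, the actin crosslinker filamin A, had the highest mean CPM without doxycycline of all lower genes, at 3654, 3413 and 3832 CPM before and 1592, 2074 and 1718 after induction (-1.06, standard error 0.119, adjusted p = 5.00e-05). Its class, a single later segment, rests on the hydropathy of 1 window, and filamin A is a cytosolic protein.

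Of 6 genes of the IRE1-XBP1 axis 4 rose, ERN2 included. XBP1 was at 75.4, 78.0 and 77.1 CPM uninduced and 168, 167 and 151 induced. The counts do not separate spliced from unspliced XBP1 mRNA. BHLHA15, a transcription factor of secretory cells, was at 0.489 to 0.700 CPM before and 4.15 to 7.87 after induction. FICD, which modifies BiP with AMP, went from 4.6, 4.99 and 5.09 CPM to 17.0, 21.8 and 15.7 (log2 fold change 1.85, standard error 0.173, adjusted p = 1.155e-05). ERN1, the endogenous paralog, was at 7.45, 7.17 and 8.34 CPM uninduced and 4.02, 5.07 and 5.42 induced, without overlap, and did not pass the threshold (-0.70, adjusted p = 0.0175). Genes of the PERK-ATF4-CHOP arm, which acts when translation is curbed, were divided, with 4 higher and 3 lower of 25. DDIT3, encoding CHOP, changed by 0.67, CHAC1 by 1.11, PPP1R15A by 0.68 and SLC3A2 by 0.87. DDIT3 kept its call only without induced replicate 2, and CHAC1 lost it without uninduced replicate 3. SLC7A5 (-1.55), VLDLR (-0.89) and PSAT1 (-0.82) were lower, and ATF4 was at 0.25 (adjusted p = 0.209).
Several higher genes encode enzymes that supply sugar nucleotides or build the N-glycan precursor. They were picked from the higher genes after their values were seen, so they give no count for that pathway. GMPPA and GMPPB, subunits of the enzyme that makes GDP-mannose, changed by 1.28 each, ALG2, a mannosyltransferase on the cytosolic face of the ER, by 1.0, and NANS, which makes sialic acid, by 0.87. UGDH (0.65), GFPT1 (0.63) and PGM3 (0.62), which make UDP-glucuronate or the precursor of UDP-N-acetylglucosamine, were also among the higher genes, but each lost its call when certain single libraries were left out (uninduced replicate 1 and induced replicate 3 for all of them, and uninduced replicate 3 for GFPT1 and PGM3). GMPPA was at 25.1, 24.9 and 26.8 CPM uninduced and 57.2, 73.3 and 61.0 induced. CREB3L2, an ER-membrane transcription factor, changed by 0.83. Beyond the secretory pathway, the immediate early gene EGR1 changed by 0.71 and the DNA damage gene GADD45A by 0.75. CREB3L2, EGR1 and GADD45A were likewise picked after their values were seen. Some of the highest values belonged to genes with few reads, such as BEST1, a chloride channel gene, at 0.651 to 1.26 CPM uninduced and 2.13 to 6.52 induced, whose call was lost without uninduced replicate 1 or 2 or induced replicate 1.

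Promoters of the higher genes were searched for elements bound by factors of the unfolded protein response, in RefSeq windows from 250 bases before to 50 after the gene start (GRCh38.p14), on both strands. A window was found for 94 of the 121 higher and 799 of the 1082 lower genes. The ER stress element, CCAAT and then CCACG 9 bases further, stood in 5 of the 94 windows (5.32%), in 1 of the 799 (0.125%) and in 0.0806% of all 27303 windows of the table. The element TGACGTGG stood in 8 of the 94 (8.51%), in 9 of the 799 (1.13%) and in 0.795% of all windows. The short part CCACG, contained in the first element, stood in 61.7%, 46.3% and 37.9%, and in 50.03% of the 9638 windows of genes tested and not called. Among those windows the ER stress element stood in 0.0726% and TGACGTGG in 0.923%. The matches of the first element are printed below with 6 bases on either side and its fixed letters in capitals, followed by 2 matches of the second element in capitals.
FICD: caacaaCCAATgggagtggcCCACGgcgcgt
HSPA5: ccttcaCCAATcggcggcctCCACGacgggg
SERP1: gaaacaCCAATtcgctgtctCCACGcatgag
TRIM5: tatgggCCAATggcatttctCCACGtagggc
XBP1: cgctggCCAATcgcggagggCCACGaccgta
NANS: gcgggcTGACGTGGcggggc
SMIM14: taagagTGACGTGGtcactc
They lie at chr12:108515117-108515147 on the plus strand (FICD), chr9:125241385-125241415 on the minus strand (HSPA5), chr3:150546704-150546734 on the plus strand (SERP1), chr11:5685109-5685139 on the plus strand (TRIM5) and chr22:28800597-28800627 on the minus strand (XBP1). Those of NANS and SMIM14 lie at chr9:98056685-98056704 on the plus strand and chr4:39638898-39638917 on the minus strand. SERP1, which stabilises ER membrane proteins under stress, changed by 0.74, the antiviral gene TRIM5 by 0.75 and SMIM14 by 1.11. SERP1 was not called without uninduced replicate 1 or 3, nor TRIM5 without uninduced replicate 3. A match is a description of these letters and not evidence of binding.

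At 10 ng/mL doxycycline most of these genes were at intermediate levels. The mean at 10 ng/mL lay between those at 0 and 100 ng/mL for 982 of the 1082 lower and 116 of the 121 higher genes. This comparison shares both end groups with the one above. The genes had been called for a gap between those groups, so a mean between them is a description only. The share over all genes tested was not computed. Tested directly, 354 genes were lower (2.43% of 14549) and 2 higher (0.0137%) at 100 than at 10 ng/mL, 2.45% in all. The count of lower genes was 0 by edgeR without induced replicate 3, 20 without induced replicate 1 and 9 without replicate 2 at 10 ng/mL. Of 1079 lower genes tested there, 351 were called lower, and the median between the doses was -0.75 in log2. The same 3 induced libraries had chosen these genes, so these values are a description and not a repeat. The higher genes had a median of 0.27, and 2 of the 121 passed. COL4A1, for example, was at 164 CPM on average at 10 ng/mL, NPC2 at 23.7 and FN1 at 1372. SEC61A1, at 453 CPM on average at 10 ng/mL, was close to its induced level and did not differ between the doses (adjusted p = 0.892). HSPA5 (766 CPM) and XBP1 (138 CPM) at 10 ng/mL did not pass between the doses either, with adjusted p of 0.228 and 0.361 in edgeR.

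In thapsigargin-treated cells, 6 other libraries, the same induction was measured again. There 9.0% of 14358 genes were lower and 1.53% higher, 10.5% in all, at 100 than at 0 ng/mL, 1292 and 220 genes. Without induced replicate 1 these counts were 1993 and 1957, and without induced replicate 2 they were 733 and 30. Without uninduced replicate 1 they were 834 and 41, and the higher genes numbered 67, 63 and 117 without uninduced replicates 2 and 3 and induced replicate 3. Of the 1079 lower genes tested in them 825 were called lower, and the median of the 1079 was -1.26 in log2. Among the 121 higher genes 8 were called higher and 5 lower, with a median of 0.11. Genes with an N-terminal segment had a median of -0.72 in these libraries and took 9.84% ± 0.45 of counts without doxycycline and 5.47% ± 0.26 with it (SD, n = 3 each). Basement membrane genes had a median of -1.35, lysosomal hydrolases of -1.12 and the cytosolic V-ATPase sector of 0.19. CALR changed by -1.72 and FN1 by -2.68, whereas HSPA5 was at -0.80 and DNAJB9 at 0.05. An interaction of doxycycline and thapsigargin over 12 libraries called 6 of 14768 genes (0.0406%), among them HSPA5, FICD and XBP1.

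Within the 1883 genes with an N-terminal segment, other features were described without a test. When they were cut by mean CPM without doxycycline into 4 groups of equal size, the share called lower was 7.43% in the group with the lowest CPM, then 27.0%, 36.6% and 56.1%, and the median log2 fold change ran from -0.26 to -0.66 in the same order. More reads also make a change of a given size easier to call. Genes whose protein had no N-glycosylation sequon had a median of -0.21 and 22.4% lower genes, and those with 4 or more sequons had -0.66 and 38.8%. Lower genes of this class had longer proteins, with a median of 556 residues against 430 for those not called. Length and sequon number were not separated. The hexamer CTGCAG, found at a cleavage site of XBP1 mRNA, occurred at a median of 0.798 per kilobase in transcripts of lower genes and 0.743 in those not called, and in 92.1% and 83.4% of transcripts, whose median lengths were 3922.5 and 2840 bases. The share with at least 1 hexamer was not adjusted for length.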

How the data were processed

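RNA-Seq was performed on HEK293doxERN2 cells in 18 libraries, and groups were taken from the sample labels. The authors aligned reads to hg38 with STAR, per the labels, and deposited raw read counts per gene symbol, without normalization. Versions, annotation and strand setting are not given in the sources used here, so reads of a gene and an antisense partner, or of near-identical paralogs, may be mixed. The 6 libraries compared held 17694360 to 24652240 counts. Replicates differed by more than sampling noise (chi-square per degree of freedom 7.31 to 44.5), so each was counted as 1 sample.
Of 25435 rows, 28 held symbols that a spreadsheet had turned into dates, and 22677 symbols matched GENCODE 29. In R 4.3.3, filterByExpr (minimum count 10) chose the genes, TMM scaled the libraries, and the quasi-likelihood test of edgeR 4.0.16 (glmQLFit, glmQLFTest) was run on the 2 groups of a comparison only. P-values were adjusted by the Benjamini-Hochberg method across the full table, and 0.01 was the threshold. The interaction with thapsigargin was added after results were seen. The standard error was taken as the size of the log2 value over the root of its F statistic. CPM were scaled by TMM over all 18 libraries. Shares of counts were compared by exact permutation tests in scipy 1.17.1. The fits were tested on simulated data. The plan asked for protein classes from a protein table. Proteins were instead translated from GENCODE coding sequences.
The members, gene lists and tests were chosen with earlier results of these data known. Named genes are ERN2, ERN1, XBP1, BHLHA15, DNAJB9, HSPA5, DDIT3 and BLOC1S1, the 15 lowest and 15 highest called genes without overlap, the 10 smallest adjusted p in each direction, up to 3 called members in each direction of each list and the 2 members with most counts. Further list members and genes said to be picked after their values were seen fall outside this rule. Alternatives were DESeq2 1.42.0, RLE size factors, library totals, no filter, all 6 groups in 1 fit, a replicate block, a threshold of 0.05, other hydropathy minimums, and each library left out in turn. Plots were made in Python 3.11.15 (matplotlib 3.10.9). Results for a few genes are not reported here.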

Additional observations from a re-analysis of the deposited data

Results flagged for a closer look

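For 5 of the genes named, the effect of 100 ng/mL doxycycline differed between thapsigargin-treated and vehicle-treated cells in an interaction test by edgeR over 12 libraries. This test was run once, with no alternative setting and no library left out. XBP1 had a log2 difference of -2.14 (standard error 0.129, adjusted p = 1.20e-06), from 1.03 in vehicle to -1.16 in thapsigargin. FICD had a difference of -2.16 (standard error 0.241, adjusted p = 0.00204), from 1.85 to -0.37. HSPA5 had a difference of -1.58 (standard error 0.219, adjusted p = 0.00898), from 0.84 to -0.80. PDIA4 had a difference of -1.4 (standard error 0.192, adjusted p = 0.00898), from 0.53 to -0.93. HERPUD1 had a difference of -1.21 (standard error 0.155, adjusted p = 0.00741), from 0.87 to -0.39.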

How the results depend on the processing

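Of 150 named genes past the threshold 115 kept their call in every alternative, 31 lost it with the replicate block and 0 reversed. Of 20 gene lists with a median of at least 0.3 in size 0 changed sign, while 9 of all lists did. The median of all genes was -0.01, and 0.04 with library totals. Replicate origin and the strand setting of the counting limit all results.
For 100 against 0 ng/mL in vehicle, DESeq2 called 267 genes higher, library totals 181 and no filter 240. At 0.05, 451 were higher and 78.1% of calls were lower, against 89.9%. Leaving out 1 library gave 835 to 1271 lower and 70 to 215 higher genes.
For 100 against 10 ng/mL, lower and higher counts were 779 and 12 with DESeq2, 633 and 5 without filter, 624 and 4 with all 6 groups and 821 and 15 at 0.05. Without 1 library they were 0 to 485 and 0 to 11. Under thapsigargin, lower counts were 2044 with all 6 groups and 1984 at 0.05, and higher counts were 685 with DESeq2, 643 without filter, 597 with all 6 groups and 1034 at 0.05. Without 1 library they were 733 to 1993 and 30 to 1957.
With replicate number as a block, pairing by number was not established, since the correlations of deviations were -0.122, -0.430 and 0.141 for numbers 1, 2 and 3. The block called 704 lower and 46 higher genes in vehicle, and 1122 and 102 at 100 against 10 ng/mL.
With the hydropathy minimum 0.2 lower, class medians were -0.33 (N-terminal only), -0.47 (N-terminal and 1 later), -0.15 (2 or more later) and 0.013 (1 later), and with it 0.2 higher -0.47, -0.58, -0.39 and -0.085, with -0.44 for N-terminal and 2 or more later and 0.037 for no segment. Changes in share of counts, in percentage points, were -1.25, -0.81, -1.14 (N-terminal and 2 or more later), -0.85 and 0.45 (1 later, reversed from -0.081) at the lower minimum, and -1.18 (N-terminal only), -0.37 (N-terminal and 2 or more later) and -0.32 (1 later) at the higher one. The cause was not tested. Without 1 library, class medians ran from -0.46 to -0.42, -0.55 to -0.51, -0.50 to -0.41 (the 3 N-terminal classes), -0.30 to -0.25 (2 or more later) and 0.031 to 0.057 (no segment).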
